A study of Mus musculus with 10 samples.

Results

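Transcripts of the splicing machinery were compared between the hippocampus of control-fed and calorie restricted mice. The set held 83 probe sets for 63 genes, out of 12488 probe sets on the array. A probe set is several short probes read together as 1 measurement of a transcript. The members were chosen by gene symbol: the platform's annotation gave them exactly 1 symbol, which began with Snrp, Lsm, Srsf, Srrm, Hnrnp, Sf3, Prpf or U2af, or was Arglu1. Symbols, not signals, decided membership, but the families and Arglu1 were picked from this same diet contrast, with its results known. Arglu1 is therefore given without a test, and the calls of the other members describe these arrays and support nothing beyond them.

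All mice were male C57BL/6 mice aged 30 months, with 5 in each diet and 1 mouse per array. The control group was fed a control diet. The other group was kept on long-term calorie restriction, and no other treatment or genotype separated the groups per the labels. RNA came from whole hippocampus, a mixture of neurons and glia, so fewer cells of a type and less RNA per cell cannot be told apart.

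Splicing removes introns from new transcripts. Small nuclear ribonucleoproteins (snRNPs) carry it out. U1 marks the start of the intron and U2 the branch point within it. U4, U5 and U6 then join to build the spliceosome. Each snRNP is a small RNA held by a ring of Sm proteins, encoded by Snrp genes, or of Lsm proteins in the case of U6. SR proteins, encoded by Srsf genes, carry stretches of arginine and serine and as a rule promote the use of nearby splice sites. The heterogeneous nuclear ribonucleoproteins (hnRNPs) coat new transcripts and often act against SR proteins. Many genes of both families adjust their own output by splicing in exons that send the transcript to decay. Neurons rely on these proteins for a large repertoire of alternative exons.

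The members fell into a snRNP/Lsm group of 18 probe sets for 16 genes, an SR group of 19 for 11 genes, an hnRNP group of 22 for 16 genes, and another spliceosome group of 23 for 19 genes with the Sf3, Prpf and U2af symbols. Arglu1 had 1 probe set and stood alone. Of the 83 probe sets, 72 passed the filter on signal: 17, 15, 19 and 20 in these groups, and Arglu1. The other 11 lay below it: 1 of Snrpb, 1 of Hnrnpab, 1 of Hnrnpdl, 1 of Hnrnpu, 1 of Srrm1, 1 of Srrm2, 2 of Srsf1, 2 of Prpf39 and 1 of Prpf4b. Srrm2, Prpf39 and Prpf4b had no tested probe set.

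Signals are MAS5 intensities, given on the log2 scale. Changes are calorie restricted minus control, relative to the median change of -0.15 over all 7453 tested probe sets, and each SE is that of the fit over all arrays. A probe set was called at an adjusted p under 0.05 in limma over all 7453. The call tests the change before the median is taken off.

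Checks of the tissue and of array quality were as follows. The neuronal list also holds general neuronal genes such as Snap25, so it does not single out the hippocampus. Of 10 markers of hippocampal and forebrain neurons, 8 were on the array, and the control means of their probe sets lay between the 34.3rd and 99.7th percentile of the array; those of 5 liver and muscle genes lay between the 4.3rd and 53.5th. The 3' to 5' signal ratio of Gapdh, which grows when RNA is broken, was 0.815 to 1.53 in control mice, 1.24 to 1.98 in calorie restricted replicates 1, 2 and 4, and 82.7 and 161 in replicates 3 and 5. That of Actb was 1.05 to 1.61 in control mice. It was 2.32, 2.38 and 4.18 in calorie restricted replicates 1, 2 and 4, and 16.4 and 29.7 in replicates 3 and 5. By Actb every calorie restricted array lay above every control, so leaving out replicates 3 and 5 does not level this measure. The log2 signal of the spike-in controls, bacterial transcripts added in fixed amounts, was 10.50 to 11.80 in control and 12.41 to 13.67 in calorie restricted mice. RNA quality and spike-in signal thus moved with the diet, and their part in the results was not tested. Over all tested probe sets 883 were called, 306 higher and 577 lower. Quantile normalization gave 319 and 284, and centring each array on its median 575 and 266, so the split between directions depends on the scaling.

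Arglu1 aside, 71 members were tested, and 6 were called higher in calorie restricted mice and 2 lower. That is 8.45% and 2.82%, beside 4.11% and 7.74% of all tested probe sets. The 6 were the Lsm genes Lsm14b and Lsm7, Snrpg of the Sm ring, the SR genes Srsf2 and Srsf9, and Hnrnpm. The 2 were Hnrnpab and a probe set of Srsf1 that passed the filter only through its control signal. The Srsf1 call is not read, though the counts and shares here include it, so Hnrnpab is the only lower call read. At an unadjusted p under 0.05 there were 21 of the 71, or 29.6%, beside 31.6% of all tested probe sets. With 1 array left out, 2 to 8 members were called higher and 0 to 3 lower. The 8 called members became 3 without control replicate 2 or 3 and 4 without control replicate 4 or calorie restricted replicate 3. The signals of the diets did not overlap in 9 of the 71 members that were higher and 3 of the 71 that were lower. Over all 7453 tested probe sets these were 370 and 697, or 4.96% and 9.35%. The 3 lower include the Srsf1 probe set. Just inside the threshold lay Hnrnpab (adjusted p in limma 0.0366). Just outside lay Lsm3, Sf3a3 and U2af2, at 0.0511, 0.0547 and 0.0554.

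**Figure D1:**
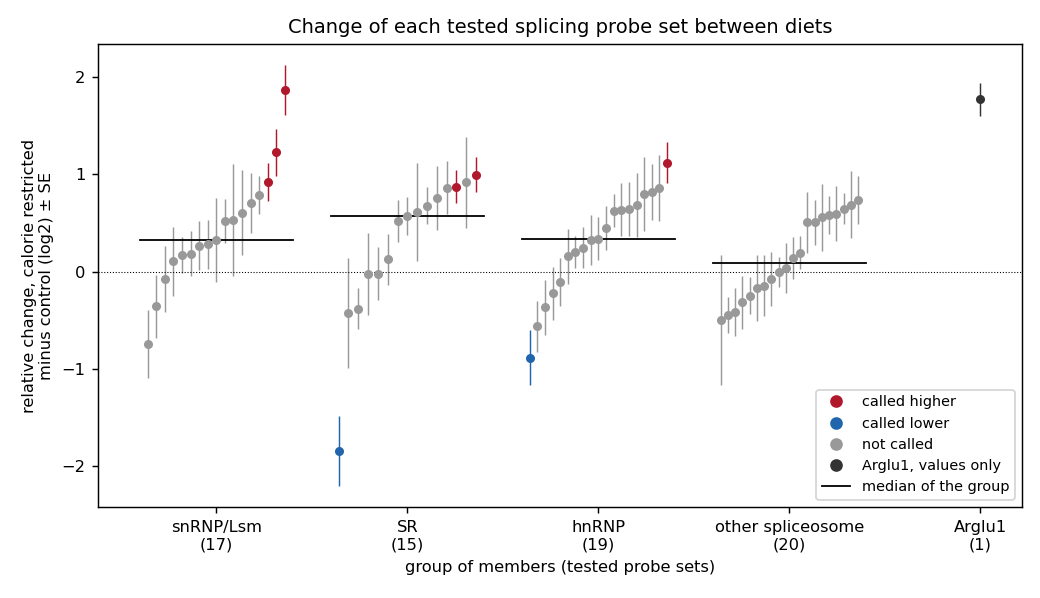
Relative change of each tested probe set between diets (log2, calorie restricted minus control, with the SE of the fit), by group of members. Black lines are the group medians, 0.32, 0.57, 0.34 and 0.09 from left to right. Colours mark the 6 probe sets called higher and the 2 called lower, of which that of Srsf1 is not read. Arglu1 is shown for its value only.

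The promoters of the genes of the 8 called probe sets follow, for reference only. The calls do not rest on them, and no link between a motif and a change was tested. Sequences are from RefSeq, build GRCm38.p6, and give the 120 bases before the annotated start of the gene, 5' to 3' on the gene's strand, at the outermost start where a gene has several. Capitals mark CCGGAA, the core bound by ETS factors, and GGGCGG, bound by Sp1 family factors, on either strand. The table holds no entry for Arglu1.
Lsm14b, chr2:180024867-180024986, plus strand: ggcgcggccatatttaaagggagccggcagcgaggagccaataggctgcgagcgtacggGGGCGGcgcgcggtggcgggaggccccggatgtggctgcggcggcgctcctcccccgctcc
Lsm7, chr10:80855210-80855329, minus strand: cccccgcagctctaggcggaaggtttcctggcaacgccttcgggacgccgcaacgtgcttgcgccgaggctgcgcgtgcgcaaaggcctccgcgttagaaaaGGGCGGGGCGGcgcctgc
Snrpg, chr6:86371420-86371539, plus strand: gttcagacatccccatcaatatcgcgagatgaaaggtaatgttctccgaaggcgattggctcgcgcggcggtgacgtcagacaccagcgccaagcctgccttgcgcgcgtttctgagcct
Srsf1, chr11:88047253-88047372, plus strand: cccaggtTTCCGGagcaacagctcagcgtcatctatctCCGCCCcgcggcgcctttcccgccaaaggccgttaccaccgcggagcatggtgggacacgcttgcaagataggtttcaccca
Srsf2, chr11:116853095-116853214, minus strand: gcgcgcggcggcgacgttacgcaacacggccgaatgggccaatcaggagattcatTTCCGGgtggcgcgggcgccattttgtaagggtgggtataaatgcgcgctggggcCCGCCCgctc
Srsf9, chr5:115327057-115327176, plus strand: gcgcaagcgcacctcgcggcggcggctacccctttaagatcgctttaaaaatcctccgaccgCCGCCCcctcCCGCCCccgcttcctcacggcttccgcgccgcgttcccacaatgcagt
Hnrnpab, chr11:51606882-51607001, minus strand: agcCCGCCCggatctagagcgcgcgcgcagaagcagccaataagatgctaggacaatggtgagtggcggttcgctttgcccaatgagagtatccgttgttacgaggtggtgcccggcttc
Hnrnpm, chr17:33685459-33685578, minus strand: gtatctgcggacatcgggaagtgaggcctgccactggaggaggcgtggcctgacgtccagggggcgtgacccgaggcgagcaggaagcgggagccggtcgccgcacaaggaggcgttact

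Arginine and glutamate rich 1, Arglu1, is a nuclear protein that works both as a coactivator and as a regulator of splicing. Its log2 signal was 10.89, 10.62, 10.79, 10.96 and 10.76 in control replicates 1 to 5 and 12.54, 12.79, 12.57, 12.05 and 12.17 in calorie restricted replicates 1 to 5. The lowest calorie restricted mouse lay above the highest control mouse. The relative change was 1.77 ± 0.17 (SE, n = 5 per diet), or 3.42-fold. Without calorie restricted replicates 3 and 5 the change was also 1.77. It was 1.82 when the fit held RNA quality, the mean 3' to 5' difference of Gapdh and Actb, and 1.53 when it held spike-in signal too.

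Among the snRNP/Lsm probe sets, 3 of 17 were called higher, 0 lower and 14 were not called. That is 17.6% higher and 0% lower, beside 4.11% and 7.74% of all tested probe sets. Lsm14b encodes an Lsm protein of cytoplasmic, translationally silent ribonucleoprotein particles rather than of a snRNP. Its log2 signal was 9.31, 9.42, 9.10, 9.42 and 9.15 in control and 10.63, 10.39, 11.32, 10.76 and 11.88 in calorie restricted mice, with replicates 5 and 3 the highest. Lsm14b rose by 1.87 ± 0.26 (SE), or 3.65-fold (limma adjusted p = 0.00648), and by 1.43 without replicates 3 and 5 (adjusted p = 0.00241). Holding RNA quality in the fit gave 1.2 (adjusted p = 0.0117), and holding spike-in signal too gave 1.32, which was not called (adjusted p = 0.24).

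Lsm7 is a subunit of the Lsm ring of U6 and of the related cytoplasmic ring that promotes mRNA decay. Its signal was 10.41, 9.74, 9.35, 9.66 and 10.47 in control and 10.81, 10.65, 11.27, 10.88 and 11.38 in calorie restricted mice, and Lsm7 rose by 1.23 ± 0.25 (SE; limma adjusted p = 0.0213). Control replicates 1 and 5 lay close to the lowest calorie restricted mouse without reaching it. Lsm7 was no longer called without control replicate 2, 3 or 4 or calorie restricted replicate 3, with relative changes of 1.08 to 1.35 over all 10 single omissions and a highest adjusted p of 0.0586. With RNA quality held, Lsm7 was at 0.80, which was not called (adjusted p = 0.123). Holding spike-in signal too gave 0.21 (limma adjusted p = 0.973). Lsm3, another subunit of both rings, had 9.25, 8.90, 9.47, 9.13 and 9.25 in control and 9.54, 9.93, 9.78, 9.59 and 10.33 in calorie restricted mice, a change of 0.79 ± 0.19 that did not pass. It passed under quantile normalization at 0.75 (limma adjusted p = 0.0384) and with each array centred on its median (adjusted p = 0.0269). With RNA quality held, Lsm3 was at 0.51, which was not called (adjusted p = 0.269). It passed in 1 of the 10 fits that left out 1 array.

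Snrpg encodes the smallest protein of the Sm ring. Its signal was 10.23, 9.74, 9.55, 9.72 and 9.81 in control and 10.13, 10.40, 10.78, 10.75 and 10.85 in calorie restricted mice. Control replicate 1 lay above calorie restricted replicate 1, so the diets overlapped. Snrpg rose by 0.93 ± 0.19 (SE; limma adjusted p = 0.0281), and by 0.73 without replicates 3 and 5, where it was not called (adjusted p = 0.0616). Its value was 0.60 when the fit held RNA quality, also not called (adjusted p = 0.157). It was called in 4 of the 10 fits that left out 1 array and was lost without control replicate 2, 3, 4 or 5 or calorie restricted replicate 3 or 4 (highest adjusted p 0.0755).

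Snrpb, which encodes the Sm proteins B and B', was not called. Its probe set had 13.32, 13.28, 13.02, 13.32 and 13.09 in control and 13.98, 13.91, 13.56, 13.71 and 12.71 in calorie restricted mice, so that 4 of 5 calorie restricted mice lay above all controls and replicate 5 lay below them. The change was 0.52 ± 0.23 (SE). Without replicates 3 and 5 Snrpb was 0.77 and passed (limma adjusted p = 0.0159), and it passed when the fit held RNA quality, at 0.93 (adjusted p = 0.036). Under quantile normalization it was -0.043. Of the 10 fits that left out 1 array, Snrpb passed in 1. The suffix of this probe set marks probes that could not be chosen by the usual rules, and the gene's other probe set had control signals of 1.05 to 5.04, below the filter. The 14 snRNP/Lsm probe sets that were not called ran from -0.75 to 0.79. They covered Lsm1, Lsm2, Lsm3, Lsm4, Lsm8 and Lsm14a, the pseudogene symbol Snrp1c-ps2, the U2 proteins Snrpa1 and Snrpb2, the U1 protein Snrpc, and the Sm proteins Snrpb, Snrpd3 and Snrpe.

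Among the SR probe sets, 2 of 15 were called higher, 1 lower and 12 were not called. That is 13.3% higher and 6.67% lower, beside 4.11% and 7.74% of all tested probe sets. The 1 called lower is the Srsf1 probe set whose call is not read. Srsf2, or SC35, is a protein of nuclear speckles that binds exonic enhancers. One of its probe sets had 12.20, 12.30, 11.65, 11.85 and 12.07 in control and 12.57, 13.02, 13.13, 12.65 and 12.93 in calorie restricted mice, with no overlap. By this probe set Srsf2 rose by 0.996 ± 0.18 (SE), or 1.99-fold (limma adjusted p = 0.0175); under quantile normalization it was 0.53 and was not called (adjusted p = 0.0819). Holding RNA quality in the fit gave 0.77, also not called (adjusted p = 0.0735). With spike-in signal held too, Srsf2 was at 0.09 (limma adjusted p = 0.961). Its other probe set pointed the other way. That one had 9.72, 9.87, 9.37, 9.46 and 10.34 in control and 9.25, 9.31, 9.55, 9.07 and 8.90 in calorie restricted mice, a change of -0.38 ± 0.21 that did not pass. The suffix of both probe sets says that they can match more than 1 transcript.

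Srsf9, a close relative of Srsf1 that selects alternative 5' splice sites, had 10.25, 10.14, 9.87, 10.20 and 10.09 in control and 10.79, 10.61, 11.20, 11.03 and 10.53 in calorie restricted mice. The diets did not overlap. Srsf9 rose by 0.87 ± 0.17 (SE; limma adjusted p = 0.0236) and by 0.81 without replicates 3 and 5 (adjusted p = 0.0182). Holding RNA quality in the fit gave 0.79, which was not called (adjusted p = 0.0677). It was called in 5 of the 10 fits that left out 1 array, and was lost without control replicate 2, 3 or 4 or calorie restricted replicate 3 or 4.

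Srsf1, or ASF/SF2, a founding member of the family, had 4 probe sets. That with the call had 8.29, 8.0, 7.66, 7.79 and 7.85 in control and 6.30, 6.90, 5.61, 5.59 and 5.20 in calorie restricted mice. All calorie restricted mice lay below all controls. Their mean of 5.92 was under 6.85, the lowest mean signal tested, so this probe set was in the fit only because of its control signal, and its call is not read here. The measured change was -1.85 ± 0.36 (SE), and -1.55 without replicates 3 and 5. Among the tested members, 1 other probe set had a diet mean under 6.85, that of Lsm2 in control mice. A second probe set had 8.76, 8.45, 8.28, 8.29 and 8.82 in control and 9.0, 8.40, 9.02, 8.71 and 9.32 in calorie restricted mice. Those ranges overlapped, and the change was 0.52 ± 0.22. The remaining pair lay below the filter, with means of 6.88 and 6.50, and of 7.01 and 4.81, in control and calorie restricted mice.

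Srrm1, a splicing coactivator that bridges SR proteins and snRNPs, had 11.20, 11.11, 10.63, 10.54 and 11.12 in control and 11.27, 11.13, 11.70, 11.75 and 11.36 in calorie restricted mice, a change of 0.68 ± 0.19 (SE) that did not pass, though it did with median-centred arrays (limma adjusted p = 0.0396). With RNA quality held, Srrm1 was at 0.50, which was not called (limma adjusted p = 0.306). It passed in 0 of the 10 fits that left out 1 array. Control replicates 3 and 4 were its lowest arrays. The 12 SR probe sets that were not called ran from -0.43 to 0.92. They included all tested ones of Srsf3, Srsf4, Srsf5, Srsf6, Srsf10 and Srsf11.

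Among the hnRNP probe sets, 1 of 19 was called higher, 1 lower and 17 were not called. That is 5.26% each way, near the 4.11% and 7.74% of all tested probe sets, so the counts are not read as a trait of the group. Hnrnpm, an RNA-binding protein that favours exon skipping at many sites, had 9.59, 9.59, 9.06, 8.99 and 9.79 in control and 10.29, 9.93, 10.50, 10.56 and 10.59 in calorie restricted mice, with no overlap. Hnrnpm rose by 1.12 ± 0.21 (SE), or 2.18-fold (limma adjusted p = 0.0181), by 0.97 without replicates 3 and 5 (adjusted p = 0.0361) and by 1.05 under quantile normalization (adjusted p = 0.0166). The fit that held RNA quality gave 0.84, which was not called (adjusted p = 0.0872). Without control replicate 3 its adjusted p was 0.0516.

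Hnrnpab, a partner of RNA transport granules in neurons, had 9.45, 9.55, 10.10, 9.88 and 9.29 in control and 9.06, 9.21, 8.25, 8.78 and 7.77 in calorie restricted mice. Replicates 3 and 5 were its lowest arrays, and replicate 2 lay just under the lowest control. Hnrnpab fell by 0.89 on the log2 scale, with an SE of 0.28 (limma adjusted p = 0.0366). It was -0.53 without replicates 3 and 5 (adjusted p = 0.0716), -0.83 under quantile normalization (adjusted p = 0.0558) and -0.30 when the fit held RNA quality (adjusted p = 0.296). It turned to 0.11 when the fit held spike-in signal too. It was called in 4 of the 10 fits that left out 1 array, and was lost without control replicate 1, 2, 3 or 4 or calorie restricted replicate 3 or 4. Its other probe set lay below the filter, with control values of 2.17 to 5.93.

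Hnrnph3, of the family that binds runs of guanines, had 9.25, 8.94, 8.82, 9.16 and 9.01 in control and 9.33, 9.42, 9.71, 9.77 and 9.32 in calorie restricted mice. The diets did not overlap, yet the change of 0.63 ± 0.17 (SE) did not pass (limma adjusted p = 0.0848). It passed under quantile normalization (adjusted p = 0.0412) and with median-centred arrays (adjusted p = 0.0316). With RNA quality held, Hnrnph3 was at 0.56, which was not called (adjusted p = 0.198). It passed in 0 of the 10 fits that left out 1 array. Hnrnpll, a regulator of Ptprc exons in lymphocytes, changed by -0.57 ± 0.26, and its ranges of 8.88 to 9.88 in control and 8.40 to 9.35 in calorie restricted mice overlapped. The 2 tested probe sets of Hnrnpdl, a relative of Hnrnpd, changed by 0.64 ± 0.27 and 0.45 ± 0.22, and neither passed. The 17 hnRNP probe sets that were not called ran from -0.57 to 0.86 and included those of Hnrnpa1, Hnrnpa2b1, Hnrnpc, Hnrnpd, Hnrnph1, Hnrnph2, Hnrnpk, Hnrnpl, Hnrnpr, Hnrnpu and Hnrnpul2.

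None of the 20 probe sets of the other spliceosome group was called in limma, in either direction, with 5 at an unadjusted p under 0.05, or 25% beside 31.6% of all tested probe sets. U2af2 encodes the large subunit of U2AF, which binds the polypyrimidine tract before the 3' splice site. It had 12.23, 12.51, 12.45, 12.50 and 12.29 in control and 12.60, 12.73, 13.05, 12.95 and 13.13 in calorie restricted mice. The diets did not overlap; the change was 0.65 ± 0.16 (SE), and 0.16 under quantile normalization. U2af2 passed with median-centred arrays (limma adjusted p = 0.0269). With RNA quality held, U2af2 was at 0.39, which was not called (adjusted p = 0.279). It passed in 2 of the 10 fits that left out 1 array. U2af1, the small subunit, which reads the AG at the splice site, changed by -0.41 ± 0.25, with ranges of 9.68 to 10.36 in control and 8.71 to 10.00 in calorie restricted mice that overlapped.

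Sf3a3, a U2 snRNP subunit that helps seat it on the branch point, had 9.42, 9.35, 9.61, 9.84 and 9.67 in control and 9.24, 8.60, 9.24, 8.80 and 9.02 in calorie restricted mice. All calorie restricted mice lay below all controls, and the change was -0.44 ± 0.19 (SE). Without replicates 3 and 5 Sf3a3 was -0.59 and passed (limma adjusted p = 0.0416). The fit that held RNA quality gave -0.62, which was not called (adjusted p = 0.0832). Neither quantile normalization (limma adjusted p = 0.137) nor median-centred arrays (limma adjusted p = 0.213) gave a call. Sf3a3 passed in 1 of the 10 fits that left out 1 array. Sf3b5, a small subunit of the SF3b complex, had 10.13, 9.93, 9.81, 9.54 and 10.31 in control and 10.32, 10.12, 10.42, 10.39 and 11.40 in calorie restricted mice, a change of 0.74 ± 0.25 that did not pass. Replicate 5 alone stood well above the rest. Over the whole group changes ran from -0.50 to 0.74, and Prpf6, Prpf8, Prpf19, Prpf31, Prpf38a, Prpf38b, Sf3a1, Sf3a2, Sf3b1, Sf3b2, Sf3b3, Sf3b6 and U2af1l4 were among those not called.

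**Figure D2:**
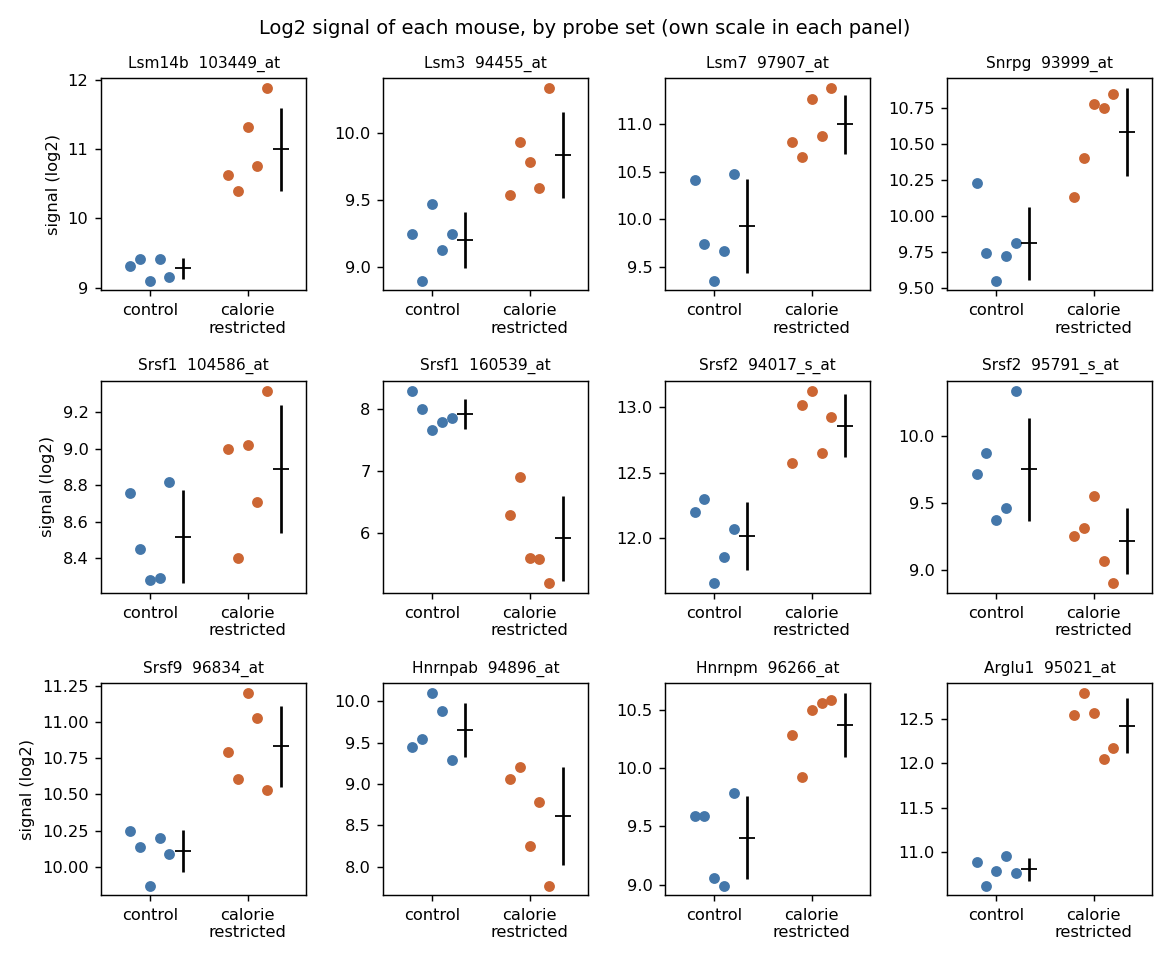
Log2 signal of each mouse for Arglu1, the 8 called probe sets, Lsm3 and the second tested probe sets of Srsf1 and Srsf2, with the mean and SD of each diet as black bars. Each panel has its own axis; points run from replicate 1 to 5 within a diet. Arglu1 and Lsm14b are widely separated, while 1 control mouse of Snrpg lies above the lowest calorie restricted mouse.

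The 3 groups were then set side by side. The median relative change was 0.32 for snRNP/Lsm, 0.57 for SR and 0.34 for hnRNP, against 0.09 for the other spliceosome group and 0 by construction for all tested probe sets. Above 0 lay 14 of 17, 10 of 15, 14 of 19 and 11 of 20 probe sets, or 82.4%, 66.7%, 73.7% and 55%, beside 50% of all. These are descriptions of families picked from this contrast, and the differences between the groups were not tested. Signal strength moved with the direction of change: among all tested probe sets, the 1491 dimmest had a median relative change of -0.26 and the 1491 brightest one of 0.28. The brightest held 21 of the 72 members, whose median was 0.64, and the dimmest held 7, whose median was -0.03.

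The level of each group in each mouse was taken as the median, over its tested probe sets, of the deviation from the control mean, less the same median over all tested probe sets. In snRNP/Lsm it was 0.11, -0.07, -0.16, -0.06 and 0.01 in control replicates 1 to 5 and 0.42, 0.23, 0.40, 0.39 and 0.51 in calorie restricted replicates 1 to 5. The diets did not overlap, and calorie restricted replicate 2 was the lowest of its diet. In SR it was 0.20, 0.09, -0.31, -0.16 and 0.18 in control and 0.43, -0.04, 0.56, 0.47 and 0.70 in calorie restricted mice. Calorie restricted replicate 2 fell among the controls.

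In hnRNP the level was 0.20, 0.09, -0.31, -0.29 and 0.29 in control and 0.32, -0.02, 0.26, 0.22 and 0.77 in calorie restricted mice. The diets overlapped widely here, and replicate 5 alone stood high. Control replicates 3 and 4 were the lowest of all 10 mice in both the SR and the hnRNP group; they also had the lowest spike-in signal, 10.50 and 10.62, and the lowest 3' to 5' difference, -0.12 and -0.07. Whether array quality sets this spread was not tested. In the other spliceosome group the level ran from -0.054 to 0.049 in control and from 0.052 to 0.276 in calorie restricted mice. The diets thus did not overlap in this group either, though by a narrow margin.

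**Figure D3:**
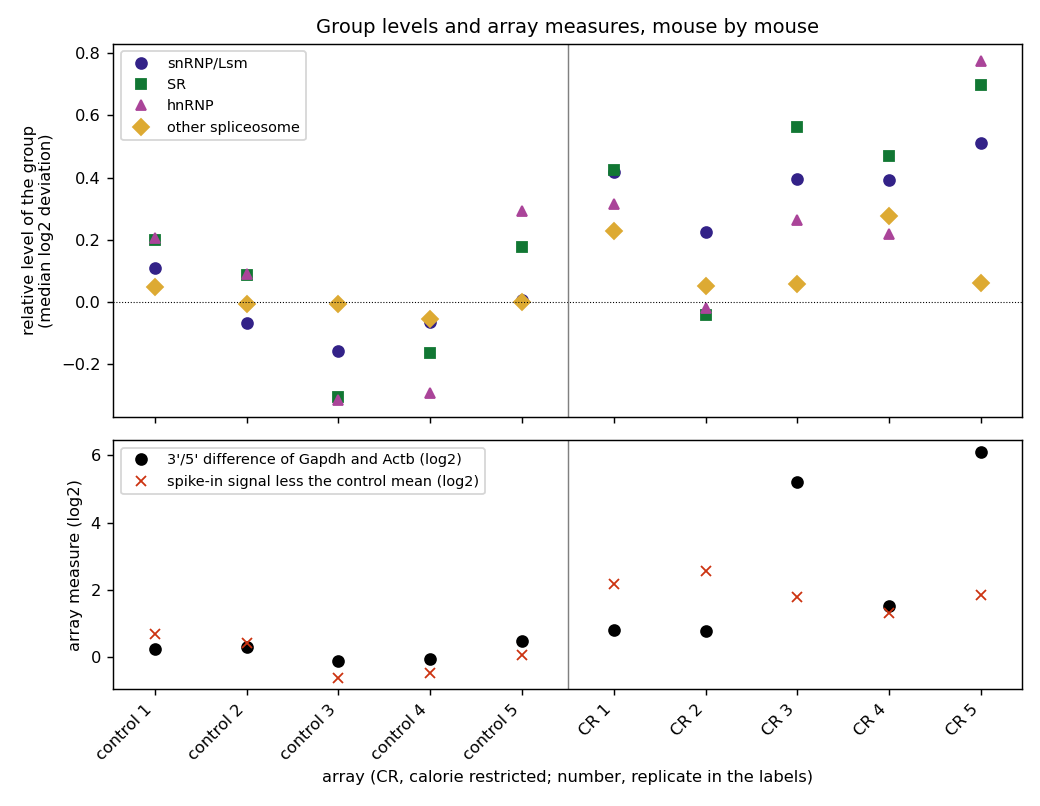
Upper panel, level of each group of members in each mouse (log2, median deviation from the control mean, less that of all tested probe sets). Lower panel, the 3' to 5' difference averaged over Gapdh and Actb and the spike-in signal of the same arrays. The snRNP/Lsm level is 0.23 to 0.51 in calorie restricted mice and at most 0.11 in controls. That of the other spliceosome group is at least 0.052 and at most 0.049, so it too does not overlap. SR and hnRNP overlap between diets.

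The groups differed in how far they rested on calorie restricted replicates 3 and 5. The median level over replicates 1, 2 and 4 and over replicates 3 and 5 was 0.20 and 0.44 in snRNP/Lsm, 0.31 and 0.79 in SR, 0.15 and 0.55 in hnRNP, and 0.14 and 0.11 in the other spliceosome group. In the fit without replicates 3 and 5 the median changes were 0.33, 0.34, 0.18 and 0.17 in this order. Holding RNA quality in the fit, they were 0.18, 0.15, 0.06 and 0.17. With spike-in signal added the SR and hnRNP medians turned to -0.22 and -0.35 and that of the other spliceosome group to -0.040, while snRNP/Lsm had 0.45; no member was called in that limma fit, with 6 of 71 at an unadjusted p under 0.05, or 8.45% beside 12.2% of all. Diet and these covariates can hardly be told apart, as they share an R2 of 0.85.

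**Figure D4:**
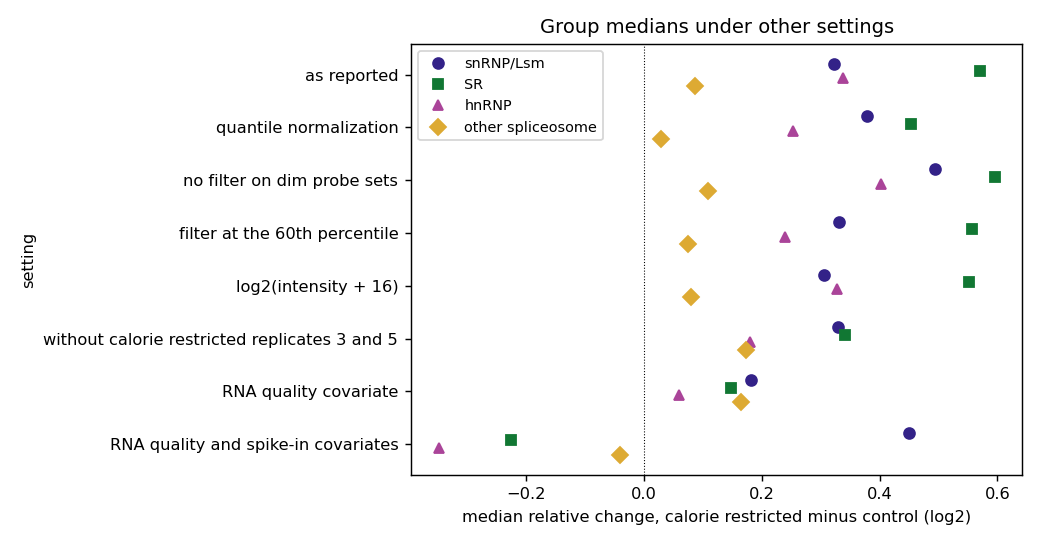
Median relative change of each group of members (log2, calorie restricted minus control) as reported and under 7 other settings. The SR median goes from 0.57 to 0.34 without calorie restricted replicates 3 and 5, and SR and hnRNP lie below 0 only with both covariates; snRNP/Lsm stays between 0.18 and 0.49 in the settings plotted.

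Spread within a diet was compared too. The SD between calorie restricted mice was larger than that between control mice in 52 of 72 members, or 72.2%. This is near the 76% of all tested probe sets, so the count is not read as a trait of the members. The share was 19 of 20 in the other spliceosome group, 12 of 17 in snRNP/Lsm, 9 of 15 in SR and 11 of 19 in hnRNP.

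Probe sets of the same gene did not always move together. Of 12 member genes with 2 or more tested probe sets, 6 had relative changes in both directions: Srsf1, Srsf2, Srsf3, Snrpb2, Sf3b1 and Prpf19. That is 50%, beside 50.4% of all 908 such genes on the array. Srsf3, Snrpb2, Sf3b1 and Prpf19 were named for this after their values were seen. The median distance between the probe sets of a gene was 0.37 in members and 0.72 over all genes.

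Motifs in the promoters, which the choice of members did not use, were counted; the differences in share were not tested. RefSeq's table held promoters of 54 of the 63 member genes, 69 in all, each from 250 bases before to 50 after the start. The letters CCGGAA occurred on either strand in 43.5% of them, against 14.9% of all 32851 promoters in the table and 18.7% of those of protein-coding genes. GGGCGG occurred in 69.6%, against 35.7% and 46.2%. TATAAA, the core of the TATA box, occurred in 7.25%, against 13.6% and 12.6%. CCAAT was found in 46.4%, against 37.4% and 38.2%, and the E box CACGTG in 5.8%, against 7.15% and 7.84%.

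CCGGAA was present in 60% of the promoters of the other spliceosome group, 46.7% in SR, 35.7% in snRNP/Lsm and 30% in hnRNP. The median number of CG pairs was 27 in member promoters and 13 in those of protein-coding genes. Some genes contribute several overlapping promoters, and a match is not a site of binding. Among the printed stretches, those of Srsf1 and Srsf2 hold 1 CCGGAA each, those of Lsm7 and Srsf9 hold GGGCGG 2 times, and those of Snrpg and Hnrnpm hold neither.

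Other genes of the pathway gave a mixed picture. Of 118 further genes of splicing, snRNP assembly and nuclear RNA binding, listed from textbook knowledge, 84 were on the array and 75 were tested. Of these 4 had a probe set called higher, 4 one called lower and 67 none. That is 5.33% of genes each way. By probe set it is 4 of 93 each way, beside 4.11% and 7.74% of all tested probe sets. The median relative change of their 93 tested probe sets was 0.17. Called higher were Txnl4a, a U5 snRNP protein, at 1.01 ± 0.13 (SE), the mRNA export adaptor Alyref at 1.27 ± 0.22, Clk3, a kinase of SR proteins, at 0.92 ± 0.23, and the RNA-binding protein Ewsr1 at 1.37 ± 0.24. Their limma adjusted p was 0.00648, 0.0121, 0.0481 and 0.0142. Called lower were Luc7l2, a U1 snRNP partner, at -0.75 ± 0.21, the helicase Ddx46, which acts on U2 snRNP, at -1.26 ± 0.42, a probe set of the nuclear matrix protein Matr3 at -2.72 ± 0.76 and Smn1, which assembles snRNPs, at -0.64 ± 0.20. Their adjusted p was 0.0225, 0.0481, 0.0331 and 0.0302. The other tested probe sets of Matr3 were at 0.53 ± 0.27 and -0.50 ± 0.24 and were not called. The spread of the called one was wide in calorie restricted mice, with an SD of 2.05 against 0.20 in controls. Under quantile normalization Ddx46 (adjusted p = 0.0827) and Smn1 (adjusted p = 0.0845) were not called in limma.

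Markers of cell types in the tissue were summed in each mouse. The summed intensity of the microglial list, with 6 of 6 genes on the array, was 5573 to 7666 in control and 3828 to 6484 in calorie restricted mice. That of the oligodendrocyte list, with 5 of 6, was 29670 to 36620 and 23430 to 33640. The astrocyte list, with 5 of 6, had 16860 to 22470 and 22170 to 29320, and the choroid plexus list, with 3 of 5, had 2618 to 11150 and 501 to 14960. The list of hippocampal and forebrain neurons, with 8 of 10, had 23800 to 32280 and 20850 to 28640. In limma 2 of 7 tested neuronal, 1 of 5 astrocyte, 1 of 4 oligodendrocyte, 1 of 6 microglial and 1 of 3 choroid plexus genes were called lower and 0 higher. By probe set, 2 of 7, 2 of 8, 3 of 9, 1 of 8 and 1 of 3 were called lower in this order. All tested probe sets gave 7.74% lower and 4.11% higher. The summed levels overlapped between diets in all 5 lists, but a sum follows its brightest probe sets and can hide a marker called lower. Median sums in control and calorie restricted mice were 24340 and 27400 for neurons and 18990 and 22900 for astrocytes. They were 31250 and 23890 for oligodendrocytes, 6551 and 5329 for microglia and 8904 and 1140 for choroid plexus. The part of cell composition in the splicing genes was not tested.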

How the data were processed

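Hippocampal RNA of 10 mice was measured on Affymetrix arrays, 1 mouse each. The deposited table gives 1 intensity per probe set and array on a linear scale; the authors made it with MAS5, per the submitters' processing notes, with version and settings not given in the sources used here. The mean without the lowest and highest 2% is about 500 on every array. Probes were not checked for matches to other genes, and the number of arrays limits the precision.

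Values under 1 (41 of 124880) were set to 1 and taken to log2. The 66 control probe sets and those with a mean below the 40th percentile of the rest were left out, leaving 7453. Diets were compared with limma 3.58.1 in R 4.3.3 (lmFit, eBayes with trend) and adjusted by Benjamini-Hochberg over all 7453. The fit was tested on simulated data. All 83 members matched RefSeq by gene number, with no change of symbol. Named by rule were Arglu1, every called member, the 4 smallest p and the highest control mean of each group, and their genes' other probe sets; the rest are given by count and range. Members, lists and alternatives were chosen with earlier results of these data known. Replicates are separate mice. Alternatives were other normalizations, filters and offsets, no variance trend, a replicate block, RNA quality and spike-in covariates, and left-out arrays.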

Additional observations from a re-analysis of the deposited data

Results flagged for a closer look

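In 68 sets of 5 values, 1 for each diet of the named probe sets, group levels and array measures, 2 held a value far from the other 4; about 1 in 20 is flagged by chance. Both were in calorie restricted replicate 5. The brighter tested probe set of Hnrnpdl had 13.01 there, with 11.89 the nearest, and Sf3b5 had 11.40, with 10.42 the nearest.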

How the results depend on the processing

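Of all tested probe sets 883 were called, and 268 to 1278 with 1 array left out; 540 with the replicate block, 333 with RNA quality as a covariate, 0 with spike-in signal added (907 at an unadjusted p under 0.05) and 1627 at a threshold of 0.10. The member counts here include Arglu1 and the called probe set of Srsf1, and neither call is read. Members called higher numbered 7: 3 to 9 with 1 array left out, 11 with median-centred arrays, 4 with RNA quality, 0 with both covariates and 11 at 0.10. Members called lower numbered 2: 0 to 3 with 1 array left out, 1 under quantile normalization, median centring or the replicate block, 0 with RNA quality or both covariates and 4 at 0.10. Under the replicate block 5 members were called higher; the block lost Hnrnpab, Snrpg and Srsf9 and added none. The numbers are shared labels only: deviations of same-numbered mice correlated at -0.08 to 0.17, and 1 of 10 mice matched its own number best. Of the 9 called members, 7 were shared by the fit without calorie restricted replicates 3 and 5, 7 by quantile normalization and 2, Lsm14b and the unread Arglu1, by the fit with RNA quality. The snRNP/Lsm median was 0.49 without a filter, 0.18 with RNA quality and 0.45 with both covariates, and 0.27 to 0.52 with 1 array left out. The SR median was 0.15 and -0.22 with 1 and both covariates and 0.45 to 0.66 with 1 array left out. With both covariates the hnRNP median was -0.35 and that of the other spliceosome group -0.040; with 1 array left out they ran from 0.27 to 0.51 and from 0.03 to 0.18. With both covariates the direction turned for Hnrnpab (0.11), Hnrnpdl (-0.25 and -0.35), Sf3b5 (-0.040) and the second tested probe set of Srsf1 (-0.10), and under quantile normalization for Snrpb (-0.043). The cause of these turns was not tested. For other called members, both covariates gave 0.21 for Lsm7, 0.09 for Srsf2, 0.47 for Snrpg, 0.62 for Hnrnpm and 0.94 for Srsf9. Dim probe sets limit Srsf1 most: its called probe set fell below the filter in 3 of the 10 fits without 1 array.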
